A study of Mus musculus with 6 samples.

Results

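Transcripts of 33 genes of blood and lymphatic endothelium were followed in newborn mouse intestine, out of 54532 genes counted. The members were taken by gene name, and each name matched 1 gene. They comprise 22 genes of endothelium in general, 5 of lymphatic endothelium and 6 that serve leukocyte adhesion. The NECA group was intestine of newborn C57BL/6 mice after 5 days with NECA (N-ethylcarboxamidoadenosine, a stable analogue of adenosine acting on adenosine receptors), in 3 libraries. The DMSO group was intestine of newborn C57BL/6 mice given the vehicle DMSO over the same 5 days, also in 3 libraries. The labels give no dose, route, sex or bowel segment, and nothing says that each library is an animal of its own, so the p-values measure only the spread between these libraries, which may be technical. The series title names necrotizing enterocolitis, in which the bowel of newborns becomes inflamed and necrotic, as the disease studied.

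Endothelial cells line blood and lymphatic vessels. Vascular endothelial growth factors act through Flt1 and Kdr in blood vessels and through Flt4 chiefly in lymphatic vessels, angiopoietins act through Tek, and transcription factors of the ETS and SOX families set endothelial identity, while Prox1 sets lymphatic identity. In the intestine the lymphatic lacteals of the villi take up chylomicrons, fenestrated capillaries take up other nutrients, and venules carry adhesion molecules such as Madcam1 that bind integrins of lymphocytes homing to the gut. Adenosine receptors are present on endothelial cells and leukocytes.

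Total counts ran from 15531996 to 18065078 per library. The labelled tissue carried its markers in every library, with the epithelial adhesion gene Epcam at 660 to 833 FPKM (the authors' deposited level, per transcript length and library size) and the intestinal transcription factor Cdx2 at 86.1 to 143 FPKM. The endothelial markers Cdh5 and Pecam1 were at 11.4 to 21.52 and 9.64 to 18.7 FPKM. NECA replicate 2 stood apart from the other libraries: its ileal marker list summed to 4377 FPKM, against 130 to 578 in the others, its jejunal list to 59.1 FPKM, against 3824 to 5012, and its epithelial list to 4385 FPKM, against 2218 to 3076. DMSO replicate 2 had the highest summed smooth muscle level, 2432 FPKM against 995 to 1283 FPKM in the others. Mitochondrial genes took 1.31% of the counts in NECA replicate 2 and 8.39% in DMSO replicate 2, against 2.80% to 4.49% in the other 4 libraries. Across genes, the median correlation of log2 levels with the other libraries was 0.937 for NECA replicate 2 and 0.964 for DMSO replicate 2, against 0.981 to 0.984 for the others. Whether these libraries differ in the bowel segment sampled was not tested.

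No endothelial gene passed the test between NECA and DMSO. Of the 33 members, 32 passed the filter on low counts and Sele did not. At an adjusted p under 0.05 (edgeR quasi-likelihood, adjusted over all 15847 genes tested) 0 of the 32 passed, where 0.0% of all genes did, and DESeq2 and limma voom with quality weights also called 0 members. At an unadjusted p under 0.05 there was 1 member, Vcam1, where 5.48% of all genes (868) stood. DESeq2 called 11 genes over the whole table, none of them a member. The 3 classes of members are described by their medians, without a test. The pan-endothelial median log2 fold change (NECA over DMSO) was -0.20 with 21 of 22 members below 0, where 51.0% of all genes tested were below 0 and their median was -0.0080. The lymphatic median was 0.41 with 4 of 5 members above 0, and the leukocyte-adhesion median was 0.22 with 3 of 5 above 0. Marker lists of other cell types and of bowel segments had directions of their own in the same fit, and their part in these medians was not tested. All 8 epithelial markers were above 0 (median 0.35) and all 8 smooth muscle markers below 0 (median -0.51). All 7 ileal markers were above 0 (median 1.92) and all 6 jejunal markers below 0 (median -0.83). As given above, NECA replicate 2 stood apart in the summed ileal, jejunal and epithelial levels. DMSO replicate 2 stood apart in the summed smooth muscle level. In bulk tissue, fewer cells of a type and less RNA per cell cannot be told apart.

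**Figure D1:**
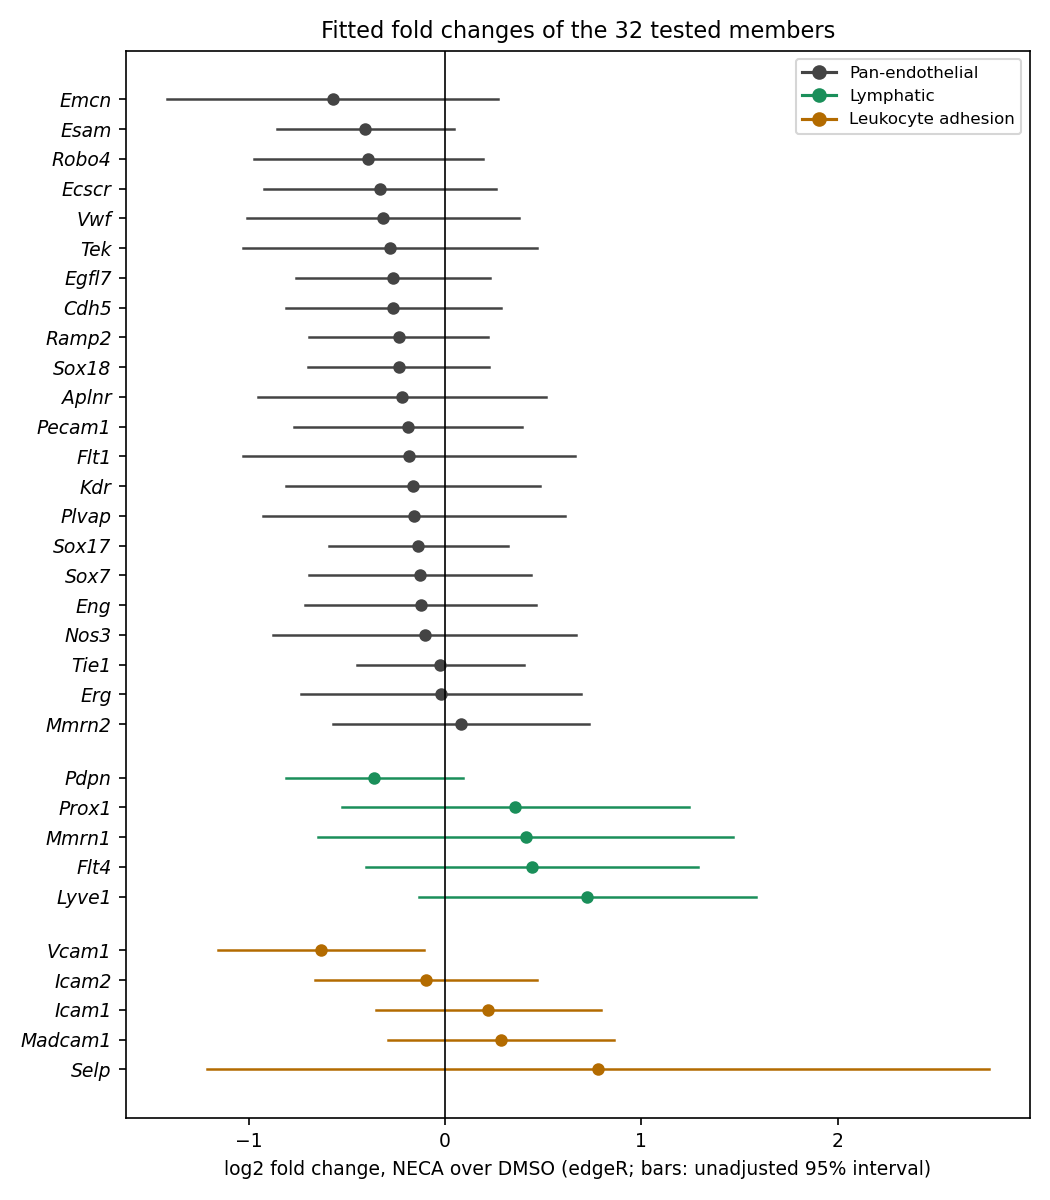
Log2 fold change of NECA over DMSO for the 32 tested members (points), with the unadjusted 95% interval of the edgeR fit (bars), by class. The 22 pan-endothelial points lie between -0.57 and 0.08, Lyve1 lies highest of the lymphatic genes at 0.72, and the interval of Vcam1 alone lies wholly to 1 side of 0.

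Among the pan-endothelial genes the marker of fenestrated capillaries stood far above the rest. Plvap (ENSMUSG00000034845, chromosome 8, 71497765 to 71511752 on GRCm38), which forms the diaphragms of fenestrae, had the highest level per transcript length of all members, 95.2 ± 26.8 FPKM over the 6 libraries (SD, n = 6). It was followed by Eng, a co-receptor of the TGF-beta family, at 20.3 ± 4.59 FPKM, by the transcription factor Sox18 at 16.1 ± 2.84, by the junctional cadherin Cdh5 at 15.9 ± 3.80 and by the junctional receptor Pecam1 at 14.2 ± 3.39 FPKM (SD, n = 6 each). Sox18, Cdh5 and Pecam1 differed from each other by less than the SD of each. At the low end were Sox17 at 1.92 ± 0.232 FPKM and Nos3, the endothelial nitric oxide synthase, at 1.46 ± 0.400 FPKM (SD, n = 6 each).

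Plvap was at 241, 92.4 and 207 CPM (counts scaled to library size, TMM-normalised) in NECA libraries, against 224, 177 and 201 CPM in DMSO libraries. NECA replicate 2 had less than any other library, and the other 2 NECA libraries overlapped with DMSO. The fitted log2 fold change was -0.16 (SE 0.33) with all libraries and 0.16 (SE 0.16) without NECA replicate 2, so the sign rested on that library. NECA replicate 2 was also lowest for Emcn and Vwf. Emcn (ENSMUSG00000054690, chromosome 3, 137341067 to 137432185), the sialomucin endomucin of capillaries and veins, was at 17.0, 5.68 and 14.4 CPM in NECA, against 19.5, 17.3 and 18.1 CPM in DMSO. The groups did not overlap, and NECA replicate 2 was far below the other NECA libraries. Its log2 fold change was -0.57 (SE 0.36), with an edgeR adjusted p of 0.738, and -0.22 without NECA replicate 2. Vwf, the von Willebrand factor that binds platelets, was at 76.4, 32.8 and 63.7 CPM in NECA and 78.2, 58.4 and 78.7 CPM in DMSO, with overlapping groups and a log2 fold change of -0.32 (SE 0.30) that was -0.032 without NECA replicate 2.

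The growth factor receptors were low in the same NECA library. Kdr, the main signalling receptor of VEGF-A, was at 94.3, 42.2 and 81.3 CPM in NECA, against 89.8, 77.9 and 76.1 CPM in DMSO. Flt1, which also binds VEGF-A and limits its access to Kdr, was at 54.4, 17.9 and 40.1 CPM in NECA, against 51.1, 37.1 and 39.4 CPM in DMSO. In both genes NECA replicate 1 was the highest of all 6 libraries and NECA replicate 2 the lowest. Their log2 fold changes of -0.16 (SE 0.28) and -0.19 (SE 0.36) became 0.12 and 0.15 without NECA replicate 2. Tek, the angiopoietin receptor, was at 23.7, 11.2 and 23.7 CPM in NECA and 29.5, 17.3 and 24.3 CPM in DMSO, and both replicates numbered 2 lay below the other 4 libraries. Its relative Tie1 varied less, at 47.9, 37.7 and 54.3 CPM in NECA and 53.6, 40.1 and 48.6 CPM in DMSO, with an unadjusted 95% interval of the log2 fold change from -0.45 to 0.40.

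The remaining receptors overlapped between the groups. Eng was at 102, 50 and 85.0 CPM in NECA and 95.4, 76.1 and 86.8 CPM in DMSO. Robo4, a guidance receptor of endothelium that stabilises vessels, was at 21.1, 12.3 and 21.6 CPM in NECA and 22.9, 28.6 and 20.6 CPM in DMSO, so the highest library was DMSO replicate 2. For Aplnr, the apelin receptor, that same library was instead the lowest: 31.6, 28.6 and 41.1 CPM in NECA, against 52.6, 21.7 and 43.5 CPM in DMSO. Ramp2, which joins Calcrl to form the adrenomedullin receptor, was at 17.5, 15.2 and 19.0 CPM in NECA and 23.5, 15.9 and 21.5 CPM in DMSO. Aplnr and Robo4 thus put DMSO replicate 2 at opposite ends.

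Junction genes split in the same manner. Cdh5, the VE-cadherin of adherens junctions, was at 64.9, 48.3 and 70.3 CPM in NECA, against 91.3, 51.9 and 76.8 CPM in DMSO, and Pecam1 was at 95.8, 60.7 and 93.6 CPM in NECA, against 117, 68.3 and 99.3 CPM in DMSO. In both, DMSO replicate 1 was highest and both replicates numbered 2 were lowest. Esam, an adhesion molecule of endothelial tight junctions, did not overlap between the groups, at 23.6, 17.0 and 26.1 CPM in NECA and 28.5, 32.8 and 27.1 CPM in DMSO. Its log2 fold change was -0.41 (SE 0.19), with an edgeR adjusted p of 0.738, and -0.24 without NECA replicate 2. Ecscr, a membrane protein of endothelial cells, was at 12.02, 6.68 and 11.02 CPM in NECA and 12.6, 13.9 and 10.9 CPM in DMSO.

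The 4 transcription factors had overlapping groups and unadjusted 95% intervals that span 0, so no difference was resolved. Erg, an ETS factor that maintains endothelial identity, had a log2 fold change of -0.019 (SE 0.31), with 13.1, 9.07 and 16.5 CPM in NECA and 16.3, 8.50 and 14.3 CPM in DMSO. Sox7, Sox17 and Sox18, SOX factors of vessel development, had log2 fold changes of -0.13 (SE 0.24), -0.14 (SE 0.20) and -0.24 (SE 0.20). Sox17 had the narrowest of these unadjusted 95% intervals, from -0.59 to 0.32. The levels of Sox7 were 7.496, 6.98 and 7.69 CPM in NECA and 9.37, 5.69 and 9.13 CPM in DMSO, those of Sox17 were 8.59, 8.47 and 9.36 CPM in NECA and 10.99, 8.03 and 10.0 CPM in DMSO, and those of Sox18 were 27.7, 18.6 and 26.2 CPM in NECA and 32.8, 25.2 and 27.4 CPM in DMSO. Of the remaining products, Nos3 was at 8.01, 3.49 and 6.14 CPM in NECA and 7.59, 5.35 and 5.94 CPM in DMSO. Mmrn2, a matrix protein of vessels, was the pan-endothelial gene with a fitted value above 0 (0.082, SE 0.28), at 28.9, 17.2 and 30.1 CPM in NECA and 29.4, 16.9 and 25.8 CPM in DMSO.

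Egfl7, a secreted protein of endothelium, was at 30.3, 21.7 and 32.6 CPM in NECA and 32.6, 41.0 and 28.1 CPM in DMSO, with a log2 fold change of -0.27 (SE 0.21). DMSO replicate 2 was again the highest library. The Egfl7 gene also holds miR-126a, a microRNA abundant in endothelium, and the mature form lies at chr2:26591402-26591423 on the plus strand (RefSeq, GRCm38.p6), over an exon of an annotated Egfl7 transcript. The microRNA's own gene, Mir126a, had 0 counts in all libraries, and the Egfl7 values are no measure of it. The sequence is shown with its seed, bases 2 to 8, in capitals.
mmu-miR-126a-3p: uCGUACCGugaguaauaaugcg

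The start regions of the receptors and adhesion genes were searched for motifs in RefSeq windows of 300 bases (GRCm38.p6, 250 before and 50 after the start), which held 17 of the 33 members in 22 windows. The ETS core, GGAAG on either strand, was in 18 of the 22 windows, those of 15 genes, and in 71.4% of all 32851 windows. The cyclic AMP response element TGACGTCA, which reads the same on both strands, was in 1 member, Flt1, and in 1.79% of all windows. A site type preferred by the NF-kappaB subunit RelA, GGAANTTCC, which also reads the same on both strands and holds the ETS core where N is G or C, was in 1 member, Icam1, and in 0.928% of all windows. A stretch before the start of 1 gene is printed for each motif, chosen to show a receptor with several ETS cores (Tie1) and the genes that hold the other motifs, since adenosine receptors can act through cyclic AMP and cytokines induce Icam1 through NF-kappaB. The Tie1 stretch, chr4:118489990-118490099, lies on the minus strand and begins 250 bases before the start, with 3 of the 7 ETS cores of its window. The Flt1 stretch, chr5:147726040-147726137, lies on the minus strand, and the Icam1 stretch, chr9:21015742-21015840, on the plus strand. Capitals mark the motif named for each gene, and a match describes letters only.
Tie1, GGAAG: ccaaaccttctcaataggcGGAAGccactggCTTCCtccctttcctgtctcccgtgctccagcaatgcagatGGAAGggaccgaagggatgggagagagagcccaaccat
Flt1, TGACGTCA: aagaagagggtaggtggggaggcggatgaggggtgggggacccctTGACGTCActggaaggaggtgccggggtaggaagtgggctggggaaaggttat
Icam1, GGAANTTCC: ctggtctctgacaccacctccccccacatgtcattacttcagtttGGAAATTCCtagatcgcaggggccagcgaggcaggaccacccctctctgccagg

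**Figure D2:**
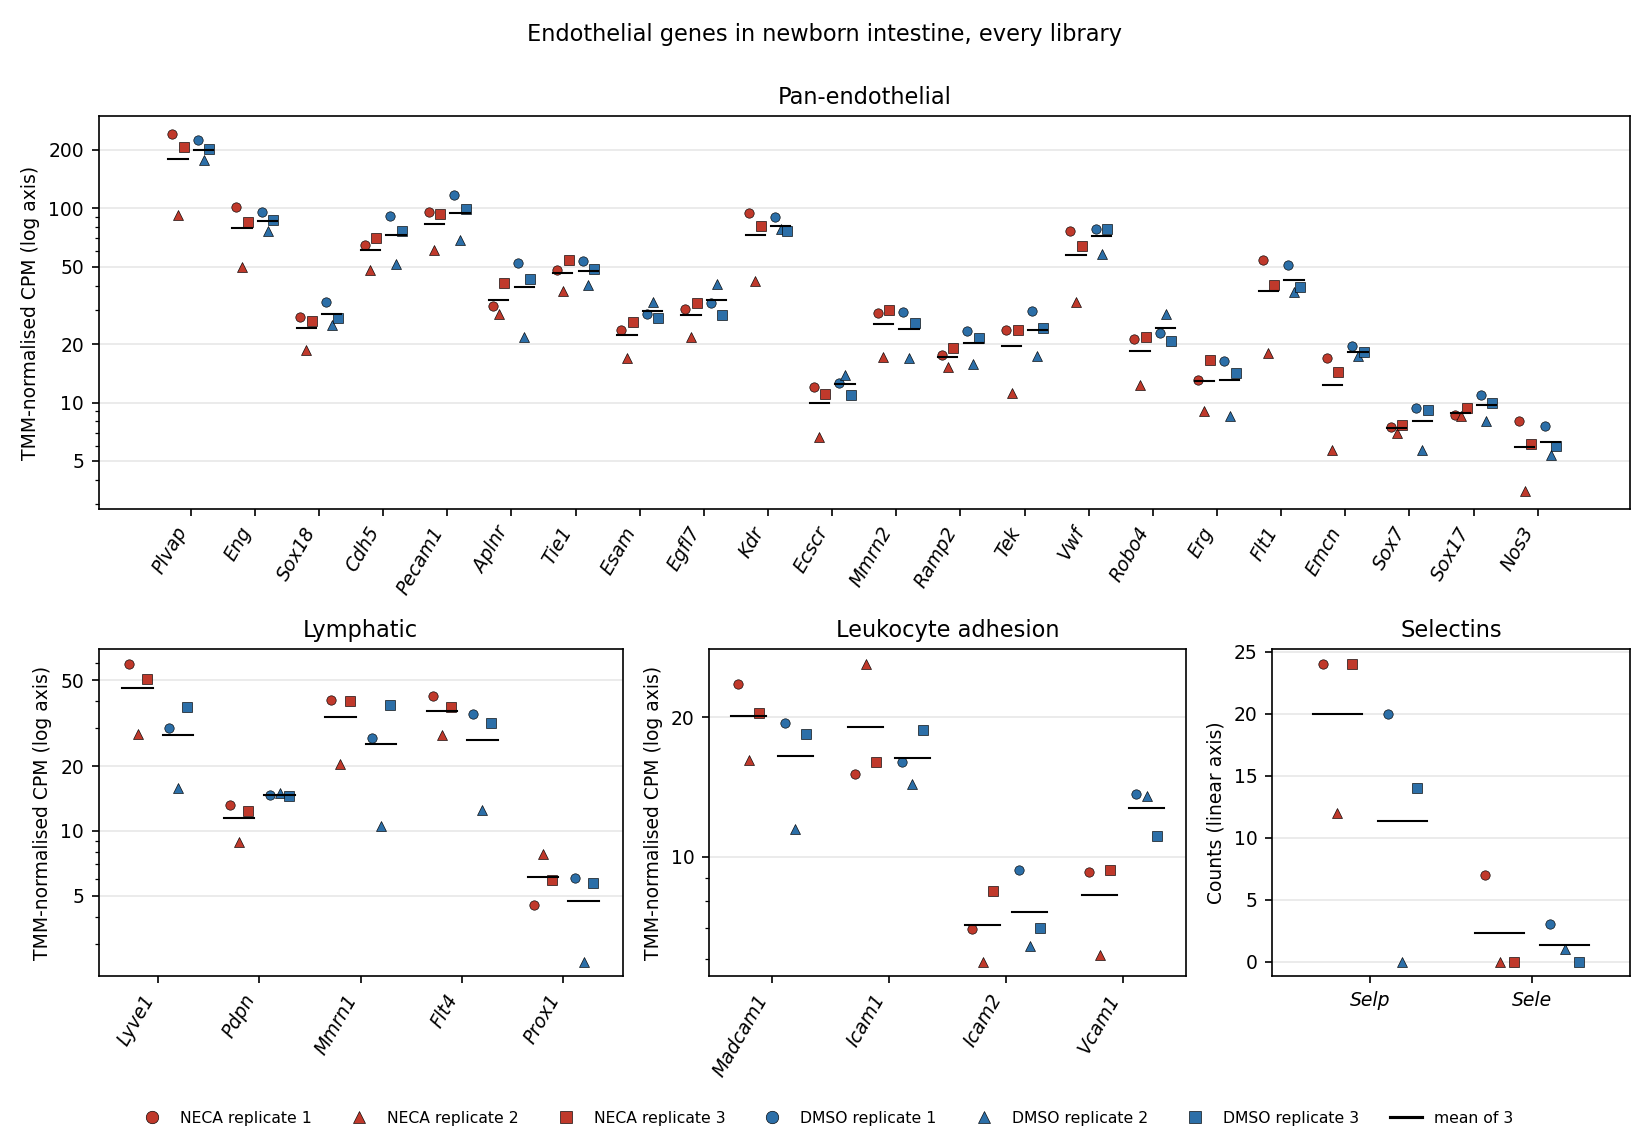
TMM-normalised CPM of each member (log axes) in the 3 NECA libraries (red, left of each gene) and the 3 DMSO libraries (blue, right), with counts on a linear axis for the selectins Selp and Sele; symbols mark the replicate number and bars the mean of 3. Triangles, the replicates numbered 2, lie at the bottom of most genes, and those of DMSO are lowest in Lyve1, Mmrn1, Flt4 and Prox1.

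Of the 5 lymphatic genes 4 had fitted values above 0, and these 4 were lowest in DMSO replicate 2. Lyve1 (ENSMUSG00000030787, chromosome 7, 110850607 to 110863239), the hyaluronan receptor of lymphatic capillaries, was at 59.5, 28.2 and 50.8 CPM in NECA, against 30.1, 15.8 and 37.8 CPM in DMSO. The NECA libraries 1 and 3 lay above all DMSO libraries, and NECA replicate 2 lay between DMSO replicates 2 and 1, so the groups overlapped. The log2 fold change was 0.72 (SE 0.37), with an unadjusted 95% interval from -0.13 to 1.58 and an edgeR adjusted p of 0.738. It stayed between 0.44 and 1.01 when each library was left out in turn. Lyve1 is also made by some tissue macrophages, and 9 of 10 macrophage markers had fitted values below 0 (median -0.40), none at 0 throughout, with sums of 143 to 253 FPKM in NECA and 209.8 to 290.4 FPKM in DMSO. The part of macrophages in the Lyve1 level was not tested.

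Flt4 (ENSMUSG00000020357, chromosome 11, 49609263 to 49652739), the VEGF-C receptor, was at 42.2, 28.0 and 37.4 CPM in NECA, against 34.9, 12.4 and 31.6 CPM in DMSO. DMSO replicate 2 was below every other library, and NECA replicate 2 was below DMSO replicates 1 and 3. Its log2 fold change was 0.44 (SE 0.36), and 0.11 without DMSO replicate 2. Mmrn1, a secreted protein of lymphatic endothelium and of platelets, was at 40.3, 20.5 and 40.01 CPM in NECA, against 27.1, 10.5 and 38.2 CPM in DMSO, a log2 fold change of 0.41 (SE 0.45) that was 0.043 without DMSO replicate 2. In both genes the value thus depended on 1 DMSO library. Of 10 platelet markers 5 passed the filter on low counts, 2 of them above 0 and 3 below (median -0.020). Among the 10, 1 had no count in any library. The list summed to 15.1 to 17.2 FPKM in NECA and 15.1 to 16.8 FPKM in DMSO. The part of platelets in the Mmrn1 level was not tested.

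Prox1, the transcription factor of lymphatic identity, was at 4.52, 7.83 and 5.91 CPM in NECA, against 6.03, 2.48 and 5.75 CPM in DMSO (log2 fold change 0.36, SE 0.38, and 0.051 without DMSO replicate 2). Unlike the other lymphatic genes it was highest in NECA replicate 2. Prox1 is also used by enteroendocrine cells, and the summed level of 8 endocrine markers was highest in the same library, at 105, 194 and 101 FPKM in NECA and 118, 113 and 119 FPKM in DMSO, a relation that was not tested. Pdpn, podoplanin, a mucin-like protein of lymphatic endothelium and of stromal cells, ran against the rest, at 13.2, 8.92 and 12.3 CPM in NECA and 14.7, 14.99 and 14.5 CPM in DMSO. The groups did not overlap, with a log2 fold change of -0.36 (SE 0.19) and an edgeR adjusted p of 0.738, and the value was -0.20 without NECA replicate 2. Of 9 tested stromal markers 6 were below 0 (median -0.13), with sums of 455 to 564 FPKM in NECA and 422 to 589 FPKM in DMSO, and their part in the Pdpn value was not tested. Leaving out DMSO replicate 2 gave a lymphatic median of 0.051, and without NECA replicate 2 it was 0.59.

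The leukocyte-adhesion genes had no common direction. Vcam1 (ENSMUSG00000027962, chromosome 3, 116109949 to 116129688), the ligand of the integrin alpha4 beta1, was at 9.24, 6.13 and 9.36 CPM in NECA, against 13.7, 13.5 and 11.1 CPM in DMSO. The 3 NECA libraries lay below the 3 DMSO libraries. The log2 fold change was -0.63 (SE 0.23), with an unadjusted 95% interval from -1.16 to -0.11, an unadjusted p of 0.0243 and an adjusted p of 0.738 with edgeR. Leaving out each library in turn gave -0.73 to -0.45. Madcam1 (ENSMUSG00000020310, chromosome 10, 79664559 to 79668537), the ligand of the gut-homing integrin alpha4 beta7, was at 23.6, 16.2 and 20.4 CPM in NECA, against 19.5, 11.4 and 18.4 CPM in DMSO. Each group had its replicate 2 lowest, and the log2 fold change was 0.28 (SE 0.25), with overlapping groups, and 0.082 without DMSO replicate 2. Per transcript length Madcam1, at 12.6 ± 2.96 FPKM over the 6 libraries, was the most abundant adhesion gene and Vcam1 was at 1.17 ± 0.317 FPKM (SD, n = 6 each).

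Icam1 and Icam2 are ligands of the leukocyte integrin LFA-1. Icam1, which inflammatory cytokines induce, was at 15.1, 26.1 and 16.0 CPM in NECA, against 16.0, 14.3 and 18.8 CPM in DMSO. Only NECA replicate 2 lay above the DMSO range, and the log2 fold change of 0.22 (SE 0.25) was -0.072 without it. That library was also the highest in epithelial markers (2913, 4385 and 2972 FPKM in NECA, and 2541, 2218 and 3076 FPKM in DMSO), and epithelial cells can make Icam1, a relation that was not tested. Icam2, which resting endothelium makes, was at 6.98, 5.93 and 8.44 CPM in NECA and 9.37, 6.42 and 7.002 CPM in DMSO. The selectins of activated endothelium were close to the detection limit. Selp, P-selectin, had 24, 12 and 24 counts in NECA, against 20, 0 and 14 counts in DMSO, and a count of 0 allows up to 3 counts, or 0.201 CPM in DMSO replicate 2. Sele, E-selectin, had 7, 0 and 0 counts in NECA and 3, 1 and 0 in DMSO, so that no difference was detectable at this depth.

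Groups that did not overlap were found for 4 of the 32 tested members with NECA lower, namely Emcn, Esam, Pdpn and Vcam1, where 7.16% of all genes tested did so. With NECA higher the count was 0 of 32, where 6.49% of all genes did so. The members also shared their lowest libraries. Each of the 32 tested members had its lowest level in NECA replicate 2 or DMSO replicate 2, where 53.0% of all genes had theirs in one of these libraries. NECA replicate 2 was lowest in 17 of 22 pan-endothelial genes (27.9% of all genes) and DMSO replicate 2 in 4 of 5 lymphatic genes (25.1% of all genes). Summed FPKM of the pan-endothelial genes was 293, 151 and 270.4 in NECA, against 305, 231 and 269 in DMSO, and that of the lymphatic genes was 40.5, 22.1 and 36.1 in NECA, against 27.7, 16.9 and 31.7 in DMSO. Without NECA replicate 2 the pan-endothelial genes stood at 13 below and 9 above 0, with a median of -0.054, and without both replicates numbered 2 at 14 below and 8 above, with a median of -0.10.

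**Figure D3:**
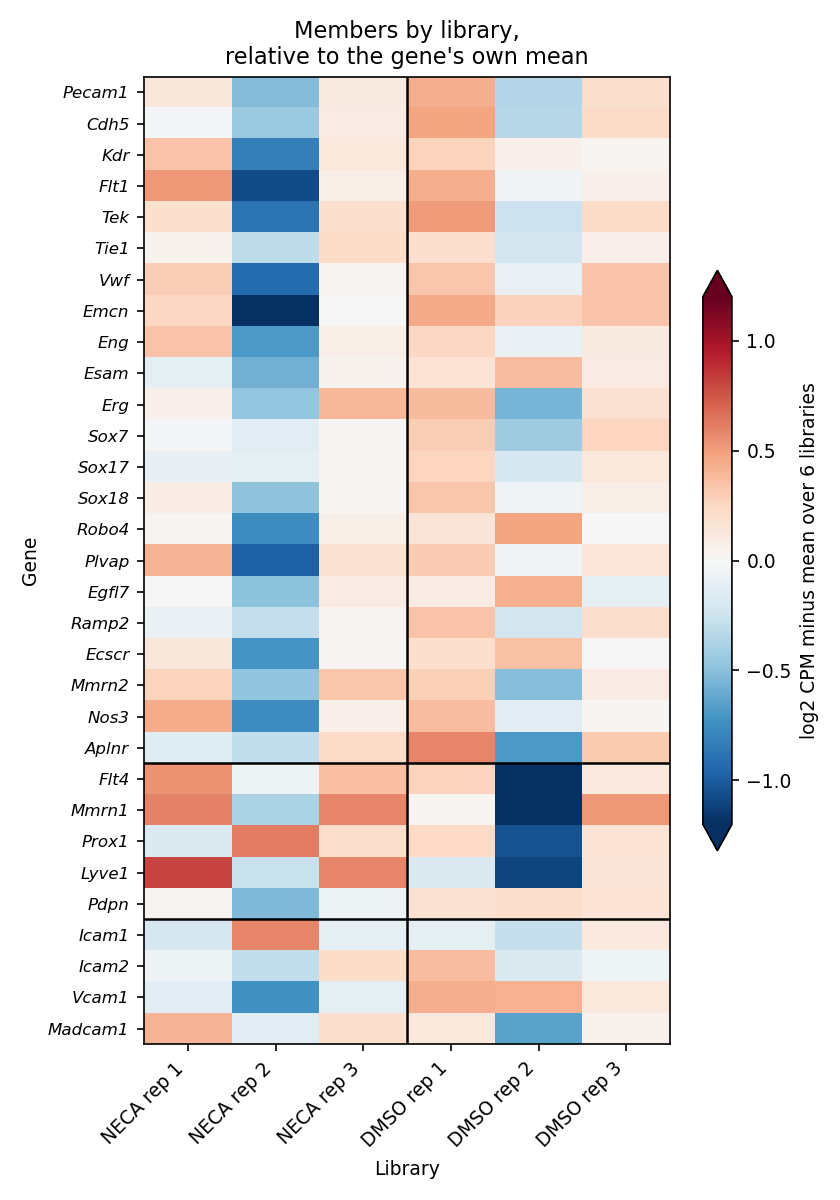
Log2 CPM of 31 tested members in each library minus the gene's mean over the 6 libraries (Selp, with a count of 0 in 1 library, is left out), with NECA on the left, DMSO on the right and lines between the classes. NECA replicate 2 is below the mean in all pan-endothelial genes. DMSO replicate 2 is low in Flt4, Mmrn1, Prox1, Lyve1 and Madcam1, and in pan-endothelial genes such as Aplnr, Erg, Sox7, Sox17, Mmrn2, Pecam1, Cdh5 and Tek. It is high in Robo4, Egfl7, Esam and Ecscr.

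Because the libraries differed in summed pan-endothelial FPKM, lymphatic and adhesion genes were also set against that sum in their own library. The ratio was chosen after the values were seen and is given as a description without a test. Lyve1 came to 7.02%, 6.31% and 6.41% of that sum in NECA, against 3.35%, 2.30% and 4.77% in DMSO. Flt4 came to 1.77%, 2.22% and 1.67% in NECA, against 1.38%, 0.642% and 1.42% in DMSO. Madcam1 came to 5.66%, 7.37% and 5.25% in NECA, against 4.40%, 3.39% and 4.73% in DMSO. For these 3 genes all NECA libraries, replicate 2 included, lay above all DMSO libraries. With Selp, 4 of the 10 tested lymphatic and adhesion genes had a higher share in every NECA library, where 5.81% of all genes did so. Selp came to 0.121%, 0.0886% and 0.115% in NECA, against 0.0821%, 0% and 0.0731% in DMSO. Its separation rests on few counts, 12 in NECA replicate 2 and 20 in DMSO replicate 1. Of the 10 genes 1, Vcam1, had a lower share in every NECA library, where 2.04% of all genes did so. Mmrn1 overlapped, at 2.37%, 2.29% and 2.51% in NECA and 1.498%, 0.761% and 2.40% in DMSO, as did Prox1, Pdpn, Icam1 and Icam2.

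The sum rests largely on Plvap, which made up 41.8%, 30.4% and 38.3% of it in NECA and 36.7%, 37.8% and 37.3% in DMSO. Over Cdh5 alone, the FPKM ratio of Lyve1 was 1.32, 0.840 and 1.04 in NECA, against 0.475, 0.438 and 0.708 in DMSO, and that of Flt4 was 0.332, 0.296 and 0.272 in NECA, against 0.195, 0.122 and 0.210 in DMSO. Neither overlapped, where 8.39% of all genes did not overlap with NECA higher. Over Pecam1 the ratio of Lyve1 was 1.33, 0.990 and 1.16 in NECA, against 0.548, 0.493 and 0.811 in DMSO, where 5.02% of all genes did not overlap with NECA higher. Flt4 did not overlap over Pecam1 either, at 0.333, 0.348 and 0.302 in NECA and 0.225, 0.138 and 0.241 in DMSO. The same held for Madcam1. Over Cdh5 it was at 1.06, 0.983 and 0.851 in NECA, against 0.624, 0.645 and 0.703 in DMSO. Over Pecam1 it was at 1.07, 1.16 and 0.947 in NECA, against 0.720, 0.726 and 0.805 in DMSO. Selp, on few counts, was also higher in every NECA library over both genes, and Vcam1 was lower. Mmrn1, Prox1, Pdpn and Icam1 overlapped over both. Lyve1, Flt4 and Madcam1 were thus separate over each of these 3 denominators, whereas their unscaled levels overlapped. Cdh5 and Pecam1 are themselves part of the sum, and 21 of the 22 genes summed had fitted values below 0. The 3 ratios are therefore not separate checks and remain a description.

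**Figure D4:**
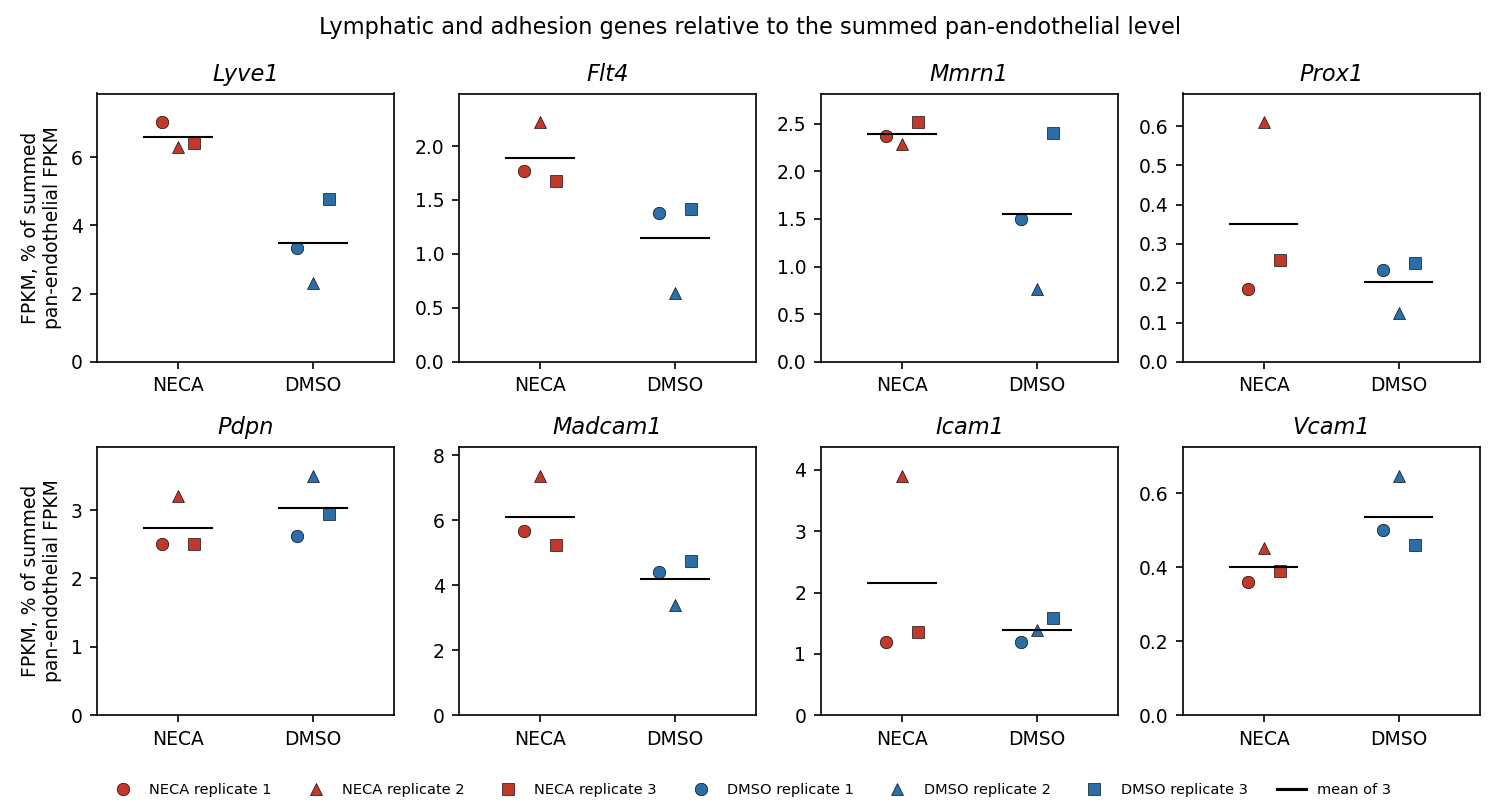
FPKM of 8 lymphatic and adhesion genes as a percent of the summed FPKM of the 22 pan-endothelial genes in the same library, for NECA (red, left) and DMSO (blue, right); symbols mark replicates and bars the mean of 3, and each panel has its own axis from 0. Lyve1, Flt4 and Madcam1 lie higher in all NECA libraries, Vcam1 lies lower, and the other 4 genes overlap.

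Other genes of the vascular pathways also gave no call with edgeR. Of 16 tested ligands and regulators, 13 were below 0, with a median log2 fold change of -0.18. The guidance ligand Slit2 was lowest in p (-0.50, SE 0.23), and Vegfc, the ligand of Flt4, was at 19.9, 16.2 and 19.8 CPM in NECA and 15.6, 9.70 and 18.8 CPM in DMSO (0.34, SE 0.25). Vegfc and Flt4 both had their lowest level in DMSO replicate 2, where 25.1% of all genes tested had theirs. Of 14 receptor partners 10 were below 0 (median -0.069), and the 3 with the smallest p were Procr (0.51, SE 0.32), the endothelial protein C receptor, Ackr3 (-0.30, SE 0.19), a scavenging chemokine receptor, and Ramp3 (-0.71, SE 0.47), a partner of Calcrl. Of 28 further endothelial genes 19 were below 0 (median -0.13), and the transcription factor genes Lyl1 (-0.72, SE 0.30) and Fli1 (-0.53, SE 0.26) and the endothelial gene Myct1 (-0.57, SE 0.28) had the smallest p. These 3 were among 4 of the 28 whose groups did not overlap with NECA lower, where 7.16% of all genes did so, the fourth being Adgrl4 (-0.39, SE 0.26), named after its value was seen. Of 12 further genes used as lymphatic markers 7 were below 0 (median -0.11), and the one with the smallest p, Nts (1.13, SE 0.51), encodes neurotensin, which the ileal epithelium also makes.

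On the leukocyte side, 11 of 12 tested integrin and selectin-ligand genes were below 0, with a median of -0.21. Itgam, the alpha chain of the myeloid integrin Mac-1 that binds Icam1, was at 3.42, 2.34 and 3.04 CPM in NECA, against 5.47, 5.82 and 5.25 CPM in DMSO (-0.91, SE 0.25). Its groups did not overlap, and its edgeR adjusted p was 0.738. Itga4, the alpha chain of the integrins that bind Vcam1 and Madcam1, overlapped, at 15.2, 11.6 and 13.2 CPM in NECA and 21.9, 11.4 and 17.4 CPM in DMSO. Of 15 tested genes of the cytokine and NF-kappaB pathways that induce adhesion molecules, inhibitors of NF-kappaB included, 10 were below 0 (median -0.080). Among them Ltb, the lymphotoxin beta that acts on lymphoid stroma, was at 1.745, 3.59 and 1.72 CPM in NECA and 5.69, 9.17 and 1.31 CPM in DMSO. The mural-cell list, which marks the pericytes around vessels, had 6 of 8 tested genes below 0 (median -0.097) and summed to 122.7, 79.7 and 112 FPKM in NECA and 125, 155 and 107 FPKM in DMSO, lowest in NECA replicate 2 like the pan-endothelial genes but highest in DMSO replicate 2.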

How the data were processed

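RNA from 6 newborn intestine libraries was sequenced in paired ends after SMARTer amplification, per the labels' protocols. For each gene the authors deposited a whole-number count and an FPKM value. Per the submitters' processing notes, HISAT, StringTie and edgeR were used on mm10 (GRCm38). Neither their versions nor a strand setting is given in the sources used here. The deposited FPKM values used library factors close to the effective library sizes computed here: for NECA replicate 2 relative to DMSO replicate 1 the factor was 1.121 and the effective size 1.119, while the total was 1.008. The libraries were amplified and carry no stated molecular identifiers, so limits from counts cover counting error only.

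Counts were filtered with filterByExpr (minimum count 10, minimum total 15), scaled by TMM and tested with edgeR 4.0.16 (quasi-likelihood, NECA against DMSO, R 4.3.3), with p-values two-sided, Benjamini-Hochberg adjusted over 15847 genes and a threshold of 0.05. Each SE was derived from the fitted log2 value and the F statistic. The script was tested on simulated data. Total counts ran from 15531996 to 18065078, and the common biological coefficient of variation was 0.276. Coordinates are from GENCODE M21 (GRCm38). Groups come from the sample titles. All 33 members were named, and from other lists at most 3 genes with the smallest p. One gene that this rule names is not reported here. Members and lists were chosen with earlier results of these data known. Alternatives were median-of-ratios scaling, no filter or a filter of 5 CPM, DESeq2 1.42.0, limma 3.58.1 voom with quality weights, a replicate block and each library left out. A fit without both replicates numbered 2 was added after seeing the data. Plvap, Eng, Sox17 and several other members overlap neighbouring genes in the annotation, and without a stated strand setting their reads cannot be told apart.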

Additional observations from a re-analysis of the deposited data

How the results depend on the processing

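No member was called under any of the 13 alternatives (0 members). Over all tested genes, same-numbered libraries did not deviate together (correlations of deviations 0.0087, -0.19 and -0.020), so the numbers were not taken as pairs. Libraries of different number gave -0.30 to 0.25. The correlations were not computed for the members alone. Each of the 32 tested members had its lowest level in NECA replicate 2 or DMSO replicate 2. The replicate block gave 0 called genes and 0 called members, with a lowest edgeR adjusted p of 0.805. With the block the SE was smaller for most tested members, with Lyve1 at 0.17, against 0.37 in the main fit. It was larger for the others, with Prox1 at 0.46, against 0.38. Over all genes, 2 were called without the filter and 11 by DESeq2. The median log2 fold change of the leukocyte-adhesion members was -0.046 with voom quality weights and -0.085 without both replicates numbered 2. Leaving out single libraries gave medians of -0.35 to -0.054 for pan-endothelial, 0.051 to 0.60 for lymphatic and 0.021 to 0.33 for leukocyte-adhesion members. Of the 32 tested members, 18 kept the sign of the fitted value under all alternatives and 14 did not, none of them called. With quality weights Tie1 was at 0.021, Erg at 0.015 and Icam1 at -0.046. Without both replicates numbered 2, Kdr was at 0.085, Flt1 at 0.063, Tie1 at 0.0022, Eng at 0.040, Plvap at 0.076, Egfl7 at 0.052, Nos3 at 0.065, Prox1 at -0.17 and Icam1 at -0.16. Single libraries left out gave -0.12 to 0.30 for Mmrn2, -0.39 to 0.12 for Kdr, -0.55 to 0.15 for Flt1, -0.46 to 0.0004 for Tek, -0.15 to 0.11 for Tie1, -0.35 to 0.12 for Eng, -0.25 to 0.18 for Erg, -0.42 to 0.16 for Plvap, -0.39 to 0.17 for Nos3, -0.51 to 0.040 for Aplnr, -0.24 to 0.075 for Icam2 and -0.072 to 0.37 for Icam1. The cause was not tested. In the main fit, with 3 libraries a group, the unadjusted 95% interval of every tested member except Vcam1 spans 0. Sele and Selp are limited by counts. The alternatives differed in this. With edgeR, the unadjusted p of Lyve1 was 0.0020 without both replicates numbered 2 and 0.0070 with the replicate block (adjusted 0.387 and 0.805). It was 0.253 without NECA replicate 1. The unadjusted edgeR p of Vcam1 was 0.0760 without DMSO replicate 1 and 0.0617 without both replicates numbered 2.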
